A study of Mus musculus with 28 samples.

Results

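The kindlin family of the mouse comprises the genes Fermt1, Fermt2 and Fermt3, which encode kindlin-1, kindlin-2 and kindlin-3. All 3 were matched by symbol and Ensembl identifier, as 3 of the 44674 genes in the bulk count table and 3 of the 31053 genes in the single-cell gene lists. Fermt1 and Fermt3 were singled out because they rose in irradiated wild-type oocytes, whereas Fermt2 was included as the remaining family member. The rise of Fermt1 and Fermt3 in wild-type ovaries and oocytes is therefore given as a description, without a test.

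Kindlins are adaptor proteins that bind the cytoplasmic tails of integrin β subunits and, together with talin, switch integrins into the state that binds matrix or ligands on other cells with high affinity. Kindlin-1 is known chiefly from epithelia, and its loss causes the skin disease Kindler syndrome. Kindlin-2 is made in most tissues and resides in focal adhesions, whereas kindlin-3 is restricted largely to blood cells, where its loss leaves leukocytes and platelets unable to activate their integrins.

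The study asked which genes respond to ionizing radiation (IR) in ovaries and which responses depend on CHEK2, a checkpoint kinase that activates p53 and its relative TAp63 after DNA breaks. Juvenile females received whole-body gamma radiation at 0.5 Gy or a sham treatment, and ovaries were taken 6 h later. Bulk mRNA sequencing was performed on the paired ovaries of 1 female per library, with 6 libraries in each of 4 groups. Single-cell RNA sequencing was performed on 4 libraries, 1 per group, each made from the pooled ovaries of 4 females. The groups were non-irradiated wild type, irradiated wild type, non-irradiated Chek2-/- and irradiated Chek2-/-. Wild-type mice were C57BL/6J, and Chek2-/- mice were homozygous for the allele Chek2tm1b(EUCOMM)Hmgu. The background strain of the mutant line and any relation between wild-type and mutant litters are not given in the sources used here.

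Bulk libraries held 17824920 to 32605519 counts, and levels are given as CPM, the reads of a gene relative to all reads of the library after scaling between libraries. The targeted gene was checked first. Chek2 (ENSMUSG00000029521) was at 19.8 to 24.6 CPM in non-irradiated and 18.5 to 23.5 CPM in irradiated wild-type libraries. It was at 2.88 to 4.44 and 3.34 to 4.53 CPM in the corresponding Chek2-/- libraries, so genotypes did not overlap. The summed level of 11 neutrophil markers stood at 1.3 to 18.2 CPM in 22 libraries but at 1858.5 CPM in irradiated wild-type replicate 3 and 1797.7 CPM in irradiated Chek2-/- replicate 2. The summed level of 11 oocyte markers was 3380.9 to 4437.8 CPM in 22 libraries and fell to 1998.3 and 2248.2 CPM in replicate 6 of the non-irradiated and irradiated Chek2-/- groups. These 4 libraries are named below wherever a kindlin value rests on them.

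The kindlin genes lie on 3 different chromosomes of GRCm38 and are all transcribed from the minus strand. In the GENCODE annotation Fermt1 (ENSMUSG00000027356) occupies chr2:132904389-132945906, Fermt2 (ENSMUSG00000037712) chr14:45458795-45530118 and Fermt3 (ENSMUSG00000024965) chr19:6998958-7019469. The longest coding transcript of each gene has 15 exons. No run of 31 bases in their transcripts is shared between members, and between 0.316% and 2.57% of such runs occur in any other gene. The exons of Fermt3 overlap 89 bases of Trpt1 on the opposite strand, while the genes within Fermt2 touch none of its exons. The start regions of the genes are shown as a description, and any link between them and the levels below was not tested. Each window, taken from RefSeq on GRCm38.p6, covers 250 bases before to 50 bases after the start of the gene, 5′ to 3′ on the minus strand, at chr2:132945987-132946286, chr14:45530016-45530315 and chr19:7019420-7019719, with CG dinucleotides in capitals. RefSeq starts Fermt1 upstream of the GENCODE gene, so that its window lies wholly outside the interval given above, whereas the other windows overlap theirs.
Fermt1: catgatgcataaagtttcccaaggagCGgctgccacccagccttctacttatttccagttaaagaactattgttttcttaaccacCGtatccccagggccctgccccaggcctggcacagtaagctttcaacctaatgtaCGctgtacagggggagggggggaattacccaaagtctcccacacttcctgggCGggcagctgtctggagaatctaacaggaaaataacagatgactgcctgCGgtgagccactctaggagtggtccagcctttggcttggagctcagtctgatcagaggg
Fermt2: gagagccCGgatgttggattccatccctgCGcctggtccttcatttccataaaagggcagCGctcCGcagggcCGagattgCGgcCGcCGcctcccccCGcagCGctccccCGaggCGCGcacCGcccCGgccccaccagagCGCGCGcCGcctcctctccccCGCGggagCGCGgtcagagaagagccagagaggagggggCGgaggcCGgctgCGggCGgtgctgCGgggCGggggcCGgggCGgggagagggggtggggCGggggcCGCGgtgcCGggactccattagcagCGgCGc
Fermt3: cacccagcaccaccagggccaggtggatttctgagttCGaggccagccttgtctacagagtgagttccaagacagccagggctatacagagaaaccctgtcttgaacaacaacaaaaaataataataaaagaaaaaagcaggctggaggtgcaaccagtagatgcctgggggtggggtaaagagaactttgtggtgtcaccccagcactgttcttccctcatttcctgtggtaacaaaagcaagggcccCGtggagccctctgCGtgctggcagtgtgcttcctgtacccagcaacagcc
The windows differ in base composition. The Fermt2 window has 76.7% G and C and 37 CG dinucleotides, more than 94.4% of the 32544 RefSeq windows of this length. The Fermt1 window has 53% G and C and 5 CG dinucleotides, and the Fermt3 window 52.3% and 3, where the median window has 7. Neither strand of any of the 3 windows matched the half-site consensus of p53, which occurs in 8.36% of all windows. This says only that the letters are not in these windows, and the rest of the genes and their surroundings were not searched.

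Fermt2 was by far the most abundant kindlin transcript of the ovary, and no change on irradiation was detected. Relative to exon length, its mean level in non-irradiated wild-type ovaries was 42.8 ± 1.58 CPM per kilobase of exon (SD, n = 6), against 0.372 ± 0.101 for Fermt3 and 0.140 ± 0.10 for Fermt1. After irradiation of wild-type ovaries the same measure was 42.5 ± 1.60 for Fermt2, 4.56 ± 1.24 for Fermt3 and 3.18 ± 0.650 for Fermt1. The order of the 3 genes was thus the same in both groups, and after irradiation the gap between Fermt1 and Fermt3 was close to the SD of Fermt3. In Chek2-/- ovaries Fermt2 was at 41.4 ± 4.48 without and 39.3 ± 4.2 CPM per kilobase with irradiation.

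In bulk ovaries Fermt2 had its lowest, median and highest level at 207, 222 and 231 CPM in non-irradiated wild-type libraries and at 208, 223 and 230 CPM in irradiated ones. The groups overlapped almost completely. The fitted difference in log2 CPM was -0.01 (SE 0.07, 95% interval -0.15 to 0.13, edgeR quasi-likelihood adjusted p = 0.999). In this comparison 2.41% of the 26790 genes tested passed an adjusted p of at most 0.05, and 1.08% also changed at least 2-fold (0.859% upwards). In bulk tissue, fewer cells of a type and less RNA per cell cannot be told apart.

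In Chek2-/- ovaries Fermt2 ranged from 177 to 243 CPM with a median of 222 CPM without irradiation, and from 163 to 222 CPM with a median of 211 CPM after it. The lowest library of both groups was replicate 6, the pair low in oocyte markers, and the groups overlapped. Irradiation changed the log2 level by -0.07 (95% interval -0.21 to 0.07, edgeR adjusted p = 1). Non-irradiated Chek2-/- ovaries differed from wild type by -0.05 (95% interval -0.19 to 0.09, edgeR adjusted p = 0.754), and the changes on irradiation in the genotypes differed by -0.07 (95% interval -0.26 to 0.13, edgeR adjusted p = 0.949).

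Fermt1 was low in wild-type ovaries at rest. Its lowest, median and highest level was 0.224, 0.635 and 1.54 CPM in the 6 non-irradiated libraries, from 5.397 to 44.808 deposited counts. In irradiated wild-type ovaries the corresponding values were 15.1, 17.2 and 25.1 CPM, from 346.380 to 492.000 counts. The highest, replicate 4, was also the highest in epithelial markers at 1137.8 CPM, whose part was not tested. Every irradiated library exceeded every non-irradiated one by a wide margin, with means of 18.1 ± 3.71 and 0.796 ± 0.573 CPM (SD, n = 6 each). A log2 fold change of 4.47 (SE 0.58) corresponds to 22.2-fold. The summed level of 3 markers of primordial-stage oocytes moved the other way, from 90.1 to 141.4 CPM in non-irradiated to 57.5 to 96.1 CPM in irradiated wild-type libraries, against 84.6 to 163.7 CPM in Chek2-/- libraries, while the list of 11 oocyte markers overlapped between the wild-type groups. The part of oocyte numbers in the kindlin values was not tested.

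Fermt3, known from blood cells, was present at rest at a low level in all wild-type libraries. Its lowest, median and highest level was 1.43, 2.13 and 3.08 CPM without and 19.7, 23.3 and 35.5 CPM after irradiation. The groups did not overlap. Replicates 3 and 4 were the highest irradiated libraries at 35.5 and 35.3 CPM. Replicate 3 is the library with many neutrophil transcripts and replicate 4, at 3.2 CPM of the neutrophil list, is not. Fermt3 rose by 3.60 on the log2 scale (SE 0.39), or 12.1-fold, and by 3.50 without both neutrophil-rich libraries.

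**Figure D1:**
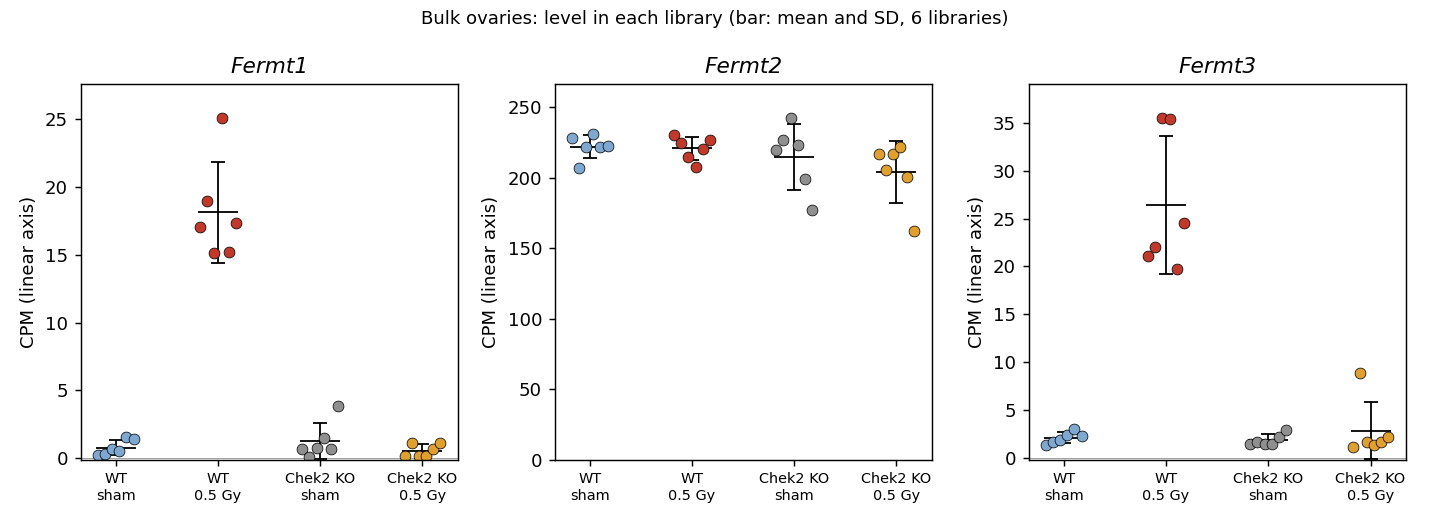
Levels of Fermt1, Fermt2 and Fermt3 in each of the 24 bulk libraries (CPM, linear axis), with 6 libraries per group and a bar for the mean and its SD. Irradiated wild-type libraries stand apart for Fermt1 at 15.1 to 25.1 CPM and for Fermt3 at 19.7 to 35.5 CPM, while all 4 groups overlap for Fermt2.

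In Chek2-/- ovaries none of the 3 kindlin genes changed detectably on irradiation. Fermt1 had its lowest, median and highest level at 0.117, 0.716 and 3.88 CPM without and 0.141, 0.423 and 1.11 CPM with irradiation. The groups overlapped, and the highest value belonged to non-irradiated replicate 6. Besides its low oocyte markers, that library had the highest sums of its group for epithelial markers (1284.2 CPM against 477.5 to 856.6), pericyte markers (803.6 against 420.1 to 545.2) and oviduct and uterine epithelium markers (28.5 against 6.6 to 16.8). It was also highest in macrophage (63.2 CPM, group median 33.2), endothelial (521.5, median 435.8) and fibroblast markers (4706, median 4051). The part of all these markers in its Fermt1 level was not tested. The difference on the log2 scale was -1.18 (SE 0.59, 95% interval -2.40 to 0.04, edgeR adjusted p = 1). Without the libraries low in oocyte markers it was -0.72, and leaving out single libraries gave -1.5 to -0.42, with -0.42 without non-irradiated replicate 6.

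Fermt3 was at 1.47, 1.64 and 3.0 CPM (lowest, median, highest) in non-irradiated and at 1.24, 1.71 and 8.91 CPM in irradiated Chek2-/- ovaries. The 3.0 CPM came from non-irradiated replicate 6, low in oocyte markers and highest of its group in macrophage markers. The groups overlapped. The 8.91 CPM came from irradiated replicate 2, which is rich in neutrophil transcripts, and the other 5 irradiated libraries reached 2.24 CPM at most. The fitted log2 change was 0.59 (SE 0.38, 95% interval -0.19 to 1.37, edgeR adjusted p = 1), and it turned to -0.20 without the neutrophil-rich libraries. That library also stood apart in erythroid markers, at 7047.4 CPM against 303.6 to 562.7 CPM in its group, and in lymphocyte markers, at 13.1 against 4.6 to 5.8 CPM. In the non-irradiated group, replicate 5 had 10445.2 CPM of erythroid markers and Fermt3 at 2.18 CPM. The part of these blood-cell transcripts in the Fermt3 value of irradiated replicate 2 was not tested. In this comparison 0.0112% of all genes tested passed the adjusted p alone, and 0.00373% also changed at least 2-fold. No kindlin gene had an unadjusted p under 0.05, and none was called by DESeq2 or limma-voom.

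The changes on irradiation in Chek2-/- ovaries thus lay below those in wild type by 5.65 on the log2 scale for Fermt1 and by 3.01 for Fermt3, values that contain the wild-type contrast by which both genes were chosen and carry no test. Over all genes tested, 0.623% had such a difference of at least 2-fold at an adjusted p of at most 0.05 (0.493% downwards). Without the neutrophil-rich libraries the value for Fermt3 was 3.69 below.

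Without irradiation, the genotypes did not differ detectably in any kindlin gene, where 5.34% of all genes tested passed the adjusted p alone and 0.788% also changed at least 2-fold (0.190% downwards). The non-irradiated wild-type libraries in this test also enter the contrast by which Fermt1 and Fermt3 were chosen. Fermt1 was higher in Chek2-/- by 0.64 on the log2 scale (95% interval -0.54 to 1.82, edgeR adjusted p = 0.571), a difference that turned to -0.11 without non-irradiated Chek2-/- replicate 6. Fermt3 was lower by a log2 value of -0.19 (95% interval -0.98 to 0.60, edgeR adjusted p = 0.839).

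Single cells were then used to locate the transcripts. The 4 libraries gave 36524 cells with a median of 15140.5 unique molecular identifiers (UMIs, each a counted mRNA molecule), in 19 clusters named by marker genes. UMIs were summed per cell class and library and are given as CPM of that class. With 1 library per group there is no replicate and no test. Intervals are exact Poisson intervals for sums, exact Clopper-Pearson intervals for shares and exact conditional intervals for ratios, all at 95% and for counting error only. Between 16 and 36 cell barcodes were shared by any pair of libraries.

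The oocyte-like class formed 1 cluster of 583 cells, which met all 11 oocyte markers, among them Dppa3, Zp3 and Ddx4. Over the class the summed neutrophil markers were at 0.583 CPM, the macrophage markers at 13.3 CPM and the pan-leukocyte markers at 104 CPM. The last list was at 2.97 CPM in fibroblast-like, 120 CPM in endothelial-like and 6307 CPM in macrophage-like cells, and in oocyte-like cells it was carried by 1 member. Lcp1, which encodes the actin-bundling protein plastin-2, was at 88.1 to 118 CPM in the 4 libraries, while the other 5 members were at 0 to 0.968 CPM each and Ptprc, the pan-leukocyte CD45 gene, had 0 or 1 UMI. The oocyte-like class held 196 cells of non-irradiated wild type, 171 of irradiated wild type, 75 of non-irradiated Chek2-/- and 141 of irradiated Chek2-/- ovaries. Depth differed sharply. The median oocyte-like cell had 181498, 14183, 159208 and 119441 UMIs in these libraries, so shares of cells with a UMI are not comparable without thinning.

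Fermt1 transcripts in irradiated wild-type ovaries came almost entirely from oocyte-like cells. The class held 1319 UMIs of Fermt1, or 98.6 CPM (93.3 to 104), against 31 UMIs or 1.07 CPM (0.728 to 1.52) in the non-irradiated wild-type library. In both Chek2-/- libraries a single UMI was found, at 0.0842 CPM (0.00213 to 0.469) without and 0.0559 CPM (0.00142 to 0.312) with irradiation. The ratio between the wild-type libraries was 92.0 (64.5 to 136). Of all Fermt1 UMIs in the irradiated wild-type library, 94.6% (93.2 to 95.7) lay in oocyte-like cells, which were 1.75% of its cells and 7.52% of its UMIs.

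Fermt3 showed the same distribution among oocyte-like cells. Irradiated wild type had 1851 UMIs, or 138 CPM (132 to 145), and non-irradiated wild type had 23 UMIs, or 0.795 CPM (0.504 to 1.19). Non-irradiated and irradiated Chek2-/- oocyte-like cells held 7 and 5 UMIs, at 0.590 CPM (0.237 to 1.22) and 0.280 CPM (0.0908 to 0.652). Only the irradiated wild-type library stood apart, with a ratio of 174 (116 to 275) to its non-irradiated counterpart, of whose 23 UMIs all but 7 lay in 2 cells described further on. Oocyte-like cells contributed 86.9% (85.4 to 88.3) of the Fermt3 UMIs of that library.

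Fermt2 was expressed in oocyte-like cells of all 4 libraries, at 98.0 to 116 CPM. It stood at 114 CPM (110 to 118) in non-irradiated and 104 CPM (98.7 to 110) in irradiated wild type, and at 98.0 CPM (92.4 to 104) and 116 CPM (111 to 121) in the corresponding Chek2-/- libraries. The ratio of irradiated to non-irradiated was 0.911 (0.855 to 0.970) in wild type and 1.19 (1.1 to 1.28) in Chek2-/-. These departures from 1 exceed counting error but were in opposite directions and have no replicate behind them. The makeup of the class also differed. The subcluster with the most Gdf9, described further on and higher in Fermt2, gave 2731806 of 28928192 UMIs of the class in non-irradiated wild type. In irradiated wild type it gave 2451014 of 13378049, a larger part, which by itself would raise the class level of Fermt2. In Chek2-/- it gave 933563 of 11869899 UMIs without and 2362920 of 17884091 with irradiation, also a larger part. Both ratios thus contain a difference in makeup that acts upwards, and its size was not tested.

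**Figure D2:**
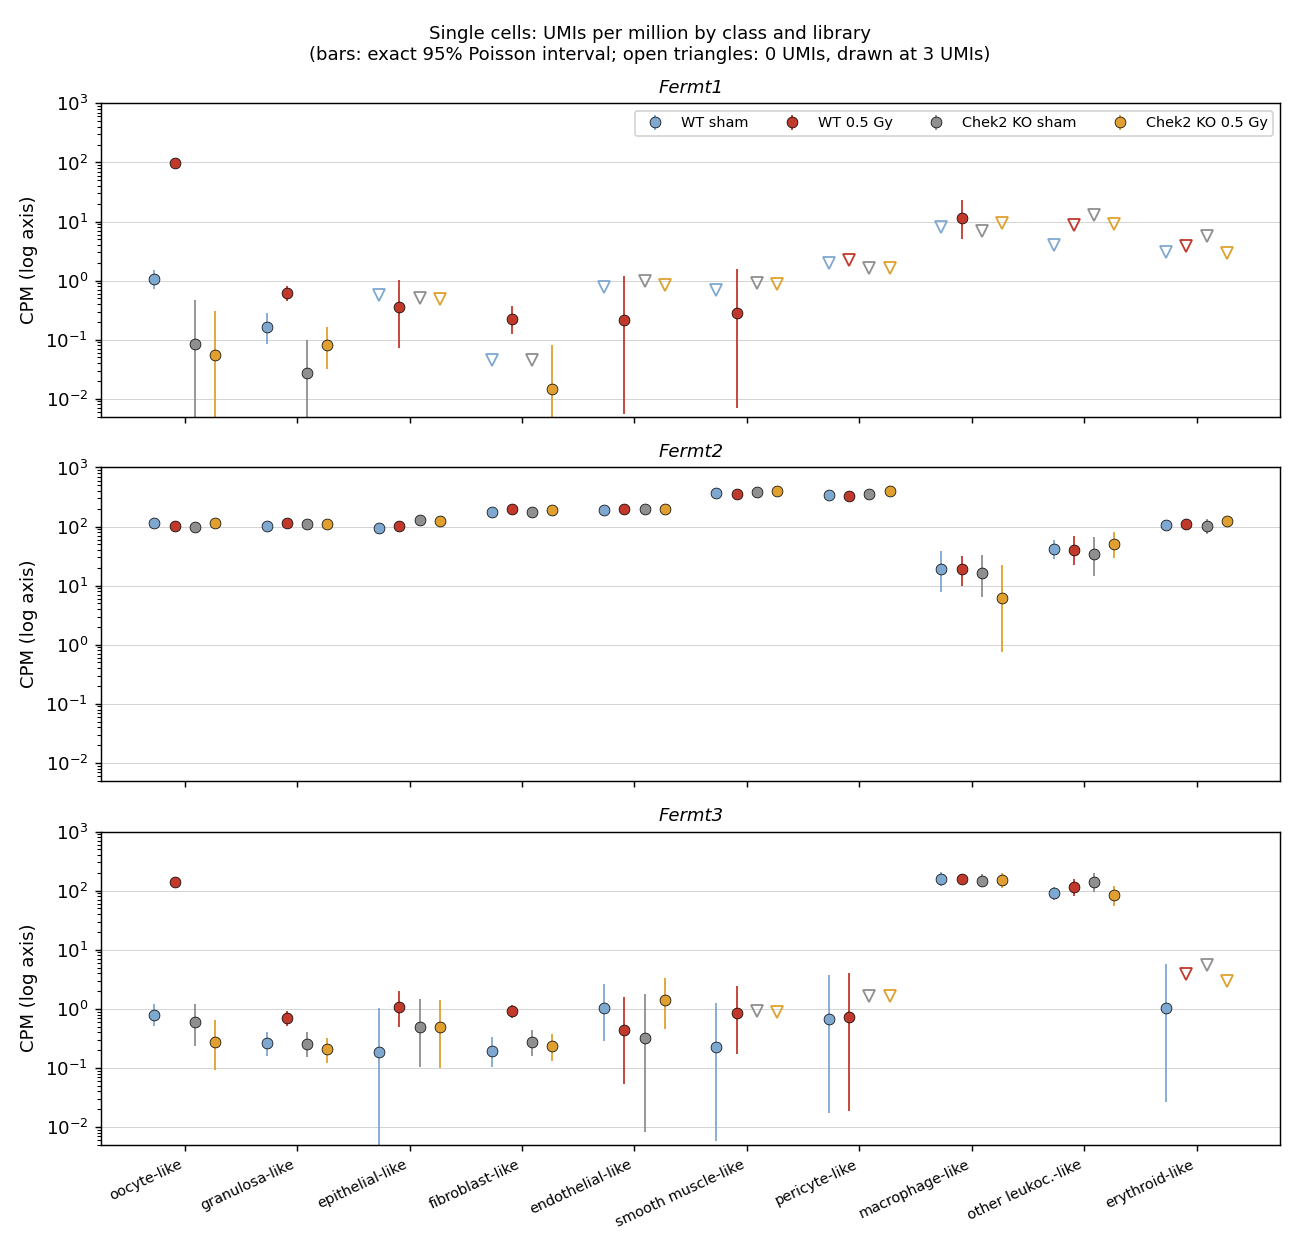
Summed UMIs as CPM (log axis) of Fermt1, Fermt2 and Fermt3 by cell class and library, with exact 95% Poisson intervals. Open triangles stand for 0 UMIs and are drawn at the level that 3 UMIs would give. Fermt1 exceeds 90 CPM only in irradiated wild-type oocyte-like cells at 98.6 CPM, Fermt3 is high there at 138 CPM and in leukocyte classes of every library, and Fermt2 is highest in smooth muscle-like and pericyte-like cells.

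Within irradiated wild-type oocyte-like cells, 49.7% (42.0 to 57.4) had a Fermt1 UMI and 59.1% (51.3 to 66.5) a Fermt3 UMI. In fibroblast-like cells of the same library, of median depth 11849 UMIs, the shares were 0.309% and 1.19%. After thinning each cell to 3000 UMIs, which left 120 of the 171 cells, the shares among oocyte-like cells were 25.8% for Fermt1, 30% for Fermt3 and 24.2% for Fermt2. In the other 3 libraries the thinned shares were between 0 and 0.529% for Fermt1 and between 0 and 1.37% for Fermt3, whereas Fermt2 was found in 19.2% to 32.5% of cells.

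Fermt1 and Fermt3 were often found in the same cells, which is given as a description. Both were chosen for their rise in these cells, and depth raises the detection of both. Of the 171 irradiated wild-type oocyte-like cells, 77 held UMIs of both genes, 8 of Fermt1 alone, 24 of Fermt3 alone and 62 of neither. The cells with both had a median of 123019 UMIs, and those with neither had 2810. Among the 91 cells with at least 10000 UMIs, 68 held both genes, 3 Fermt1 alone, 7 Fermt3 alone and 13 neither. By the same depth limit both genes were found together in 2 of 166 non-irradiated wild-type cells, in 1 of 69 non-irradiated and in 0 of 105 irradiated Chek2-/- cells.

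The signal was spread over many cells rather than a few, but unevenly. A subcluster of 61 deep cells, described further on, held 1173 of the 1319 Fermt1 UMIs and 1603 of the 1851 Fermt3 UMIs. The highest count in an irradiated wild-type cell was 54 UMIs for Fermt1 and 72 UMIs for Fermt3, while the 10 highest cells accounted for 31.7% of the Fermt1 and 31.8% of the Fermt3 UMIs. Across the 91 deep cells, which share a library and differ in depth, log2(CPM + 10) of Fermt1 and Fermt3 had a Pearson r of 0.72. The corresponding values with Fermt2 were -0.32 for Fermt1 and -0.28 for Fermt3. These cells also came from subclusters that differ in the level of every kindlin, described further on. The part of that mixture in the r values was not tested.

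**Figure D3:**
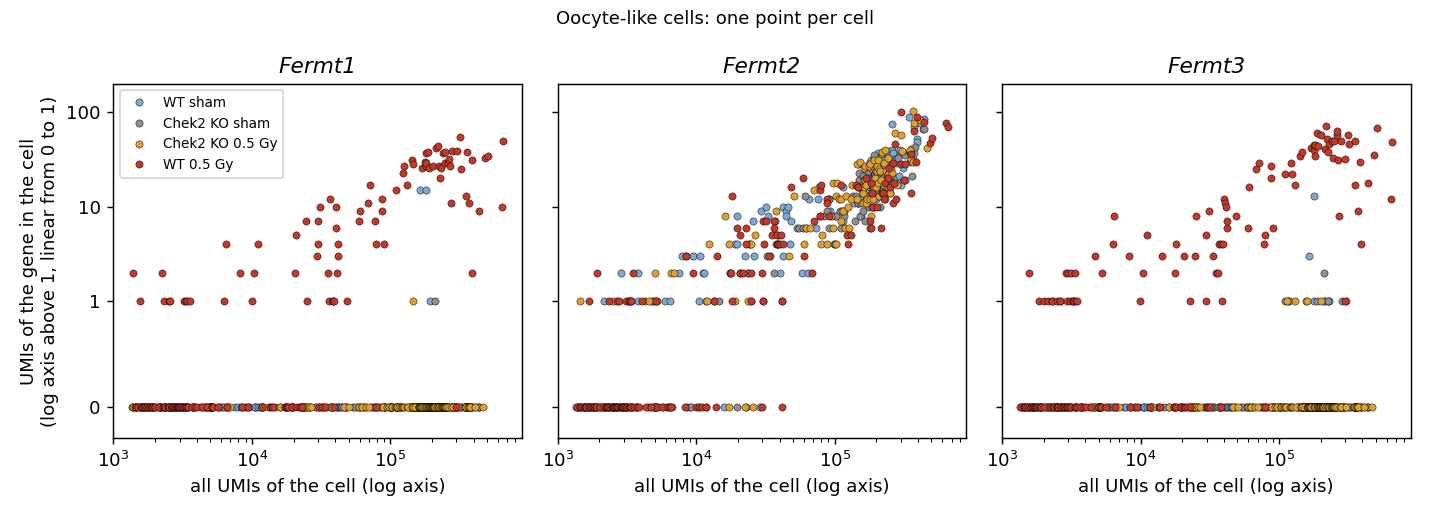
UMIs of each kindlin gene (log axis above 1) against all UMIs of the cell (log axis), with 1 point per oocyte-like cell. Cells of irradiated wild type reach 54 UMIs of Fermt1 and 72 of Fermt3 and nearly all other cells lie at 0 or 1, while for Fermt2 all 4 libraries rise together with depth.

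The few Fermt1 UMIs of non-irradiated wild-type oocyte-like cells were concentrated in 2 cells with 15 UMIs each, at depths of 163281 and 180101 UMIs. The second of these also held 13 UMIs of Fermt3 and 10 of Cbr2, another gene of the study's radiation-responsive list, and the first held 3 and 0. The remaining 194 cells had 1 Fermt1 UMI in all, so the level of 1.07 CPM in this library rests on these 2 cells. Without them, a choice made after seeing the data, Fermt1 was at 0.0350 CPM (0.000886 to 0.195) and Fermt3 at 0.245 CPM (0.0985 to 0.505). The wild-type ratios of both genes given above therefore also rest on these 2 cells, and would be higher without them. Fermt2 was at 114 CPM with and without them.

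Oocyte-like cells were divided further without use of the kindlin genes or the study's radiation-responsive genes. Other genes that change on irradiation were not left out, and no correction between libraries was applied. The division may therefore not be independent of the response to irradiation. A subcluster of 61 cells came from irradiated wild type alone, had a median of 124623 UMIs and held 134 CPM (126 to 142) of Fermt1, 183 CPM (174 to 192) of Fermt3 and 76.2 CPM (70.5 to 82.2) of Fermt2. A group drawn from a single library may reflect that library rather than a state of the cells. Another subcluster, with the most Gdf9, an oocyte growth factor of follicles beyond the primordial stage, held cells of all 4 libraries. Its 17 irradiated wild-type cells were at 15.1 CPM (10.6 to 20.8) of Fermt1 and 22.8 CPM (17.3 to 29.7) of Fermt3, below the subcluster of 61 cells. Among the remaining irradiated wild-type cells, 25 cells low in Gdf9 were at 43.1 CPM (32.2 to 56.5) of Fermt1 and 48.0 CPM (36.5 to 62.1) of Fermt3, and 40 shallow cells with a median of 3111 UMIs were at 54.7 CPM (30.6 to 90.2) and 128 CPM (88.9 to 177). A further 2 deep cells of another subcluster rich in Gdf9 were at 62.9 CPM (43.6 to 87.9) of Fermt1, all of it in 1 of these cells, and 131 CPM (103 to 166) of Fermt3. Another shallow subcluster of 25 cells with a median of 2633 UMIs was at 60.9 CPM (26.3 to 120) and 206 CPM (136 to 299). In the subcluster with the most Gdf9, Fermt2 was at 193 CPM (177 to 210) in non-irradiated and 190 CPM (173 to 208) in irradiated wild type, from 37 and 17 cells. It was at 155 CPM (131 to 183) and 210 CPM (192 to 229) in the Chek2-/- libraries, from only 4 and 9 cells. These intervals do not cover the spread between cells.

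Outside oocytes, Fermt3 was found in leukocytes. Macrophage-like cells, of which there were 31, 54, 29 and 23 in the order given above, were at 158 CPM (120 to 204), 160 CPM (132 to 193), 148 CPM (114 to 189) and 151 CPM (112 to 200). All 4 intervals overlap, and the ratio of irradiated to non-irradiated was 1.01 (0.731 to 1.42) in wild type and 1.03 (0.692 to 1.51) in Chek2-/-. Other leukocytes, whose leading genes were those of neutrophils, antigen-presenting cells and mast cells, were at 90.9 CPM (70.4 to 115), 114 CPM (80.8 to 155), 139 CPM (95.9 to 196) and 83.6 CPM (55.5 to 121). Their ratios of irradiated to non-irradiated were 1.25 (0.821 to 1.88) in wild type and 0.60 (0.349 to 1.02) in Chek2-/-. This class pooled a cluster led by S100a8, with 48, 29, 26 and 21 cells, and a mast-cell cluster led by Cma1, with 15, 11, 1 and 4. These ratios thus also contain a difference in makeup. In the 3 libraries other than irradiated wild type, 62.1% to 66.9% of all Fermt3 UMIs lay in leukocytes, which were 0.547% to 1.01% of cells.

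Outside oocytes, Fermt1 was highest in macrophage-like cells of irradiated wild type, at 11.5 CPM (4.98 to 22.7) from 8 UMIs in 2 of 54 cells, of which 1 cell held 7. Macrophage-like cells of the other 3 libraries held 0 UMIs, where 3 UMIs would have given 6.92 to 9.27 CPM. Over all libraries, macrophage-like cells also carried oocyte markers at 216 CPM, against 42.4 to 84.4 CPM in the other classes outside oocytes, and the part of oocyte RNA in their Fermt1 level was not tested. Fibroblast-like cells held 15 UMIs in irradiated wild type, at 0.225 CPM (0.126 to 0.371), and 0, 0 and 1 UMI in the other libraries. Pericyte-like cells held 0 UMIs in all 4 libraries, where 3 UMIs would have given 1.62 to 2.19 CPM. In epithelial-like cells 3 UMIs were found in irradiated wild type, at 0.357 CPM (0.0737 to 1.04), and 0 in the other libraries. Granulosa-like cells held 12, 48, 2 and 7 UMIs, at 0.165, 0.615, 0.0271 and 0.0798 CPM.

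Cells other than oocytes and leukocytes also had more Fermt3 UMIs in irradiated wild type, at 0.795 CPM (0.664 to 0.944), than in the remaining libraries, at 0.242 to 0.265 CPM. Together these cells held 68 UMIs of Fermt1 and 130 of Fermt3 in irradiated wild type, where the oocyte-like cells held 1319 and 1851. The part of free RNA from oocytes in these low values was not tested.

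Fermt2 was found in every major class, in the order smooth muscle, pericyte, endothelial and fibroblast, granulosa and epithelial, and leukocyte. Perivascular smooth muscle-like cells were at 362 to 401 CPM over the 4 libraries and pericyte-like cells at 331 to 398 CPM, and these ranges overlap. Endothelial-like cells at 193 to 201 CPM and fibroblast-like cells at 179 to 195 CPM also overlapped with each other. Granulosa-like cells stood at 102 to 117 CPM and epithelial-like cells at 95.3 to 128 CPM, a range shared with oocytes. Erythroid-like cells were at 101 to 124 CPM, but that class also carried fibroblast markers at 3737 CPM and granulosa markers at 1867 CPM, against 10086 and 3759 CPM in the classes they mark, and the part of RNA from other cells in its Fermt2 level was not tested. Macrophage-like cells were lowest, at 6.18 to 19.1 CPM from 2 to 13 UMIs. An unnamed cluster of 42 cells, led by Fabp7, Foxd3 and Sox10, was at 228 to 301 CPM from 9 to 37 UMIs.

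The ratio of Fermt2 between irradiated and non-irradiated wild type was 1.14 (1.11 to 1.18) in granulosa-like, 1.08 (1.06 to 1.11) in fibroblast-like, 1.04 (0.946 to 1.15) in endothelial-like, 1.07 (0.954 to 1.19) in epithelial-like, 0.965 (0.897 to 1.04) in smooth muscle-like and 0.972 (0.855 to 1.11) in pericyte-like cells. In Chek2-/- the granulosa-like ratio was 1.00 (0.973 to 1.03) and the fibroblast-like ratio 1.05 (1.02 to 1.08), with 1.02 (0.912 to 1.14) in endothelial-like, 0.986 (0.891 to 1.09) in epithelial-like, 1.03 (0.956 to 1.12) in smooth muscle-like and 1.13 (1.01 to 1.26) in pericyte-like cells. Macrophage-like cells held too few Fermt2 UMIs to compare, at 2 against 7 in Chek2-/- for a ratio of 0.383 (0.0388 to 2.01). Between genotypes, non-irradiated epithelial-like cells had a ratio of 1.34 (1.2 to 1.5) of Chek2-/- to wild type.

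Genes with the pattern most like that of each kindlin were named by Pearson correlation, as a description. Over the 24 bulk libraries and 15955 genes, log2 CPM of Fermt1 was closest to Coro2a (r = 0.938), Cbr2 (0.933), Scn4b (0.923), Fermt3 (0.918) and Nectin4 (0.914). Fermt3 was closest to Scn4b (0.969), Gpr132 (0.963), Gna15 (0.957), 9930012K11Rik (0.944) and Fam83b (0.943). Apart from Coro2a, all of these are on the study's list of radiation-responsive genes, which was chosen on these libraries. Fermt2 was closest to Gm5065 (0.946), Gm13023 (0.933), Nlrp9c (0.926), Oog4 (0.925) and Tom1l1 (0.925), of which Nlrp9c and Oog4 are known as oocyte genes. This likeness leaned on replicate 6 of both Chek2-/- groups, the libraries low in Fermt2 and in oocyte markers alike. Over the other 22 libraries, a choice made after seeing the data, the r of these genes with Fermt2 was 0.714 to 0.821.

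Over 40 single-cell pools, each a class in a library, Fermt1 was most like Plch2 (r = 0.997), Plcxd1 (0.976), Pcdh10 (0.970), Gm648 (0.949) and Trp73 (0.939). These values rest on 1 pool, the irradiated wild-type oocyte-like cells by which Fermt1 was chosen, since the next pool was at 11.5 CPM. Trp73 encodes a relative of p53. Fermt3 was most like Ccdc88b (0.961), Itgb2 (0.943), Pou2f2 (0.942), Dock8 (0.941) and Ptpn6 (0.937), genes known from leukocytes. Fermt2 was most like Rbfox2 (0.939), Nxn (0.937), Csrp2 (0.932), Csnk1a1 (0.926) and Jam3 (0.914). Pools of a library share its depth, and leukocyte and oocyte pools carry most of the range of Fermt3.

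Kindlins act on integrins, so lists of integrin subunits, activators, adhesion scaffold, inactivators and ligands were read in the bulk ovaries beside them. Of 77 listed genes, 76 were tested. On irradiation of wild type, 3 of the 76, or 3.95%, rose at an adjusted p of at most 0.05 and none fell, against 1.53% of all genes that rose. The lists had a median log2 fold change of 0.02, which was 0.00 over all genes tested. All 8 β subunits had a value above 0, with a median of 0.27, but only 1 of them passed the adjusted p. Values above 0 were also found for 11 of 17 α subunits, 5 of 6 activators and 12 of 16 scaffold genes. Among inactivators 1 of 4 was above 0, and among ligands 8 of 25, with a median of -0.03. The share of all genes above 0 is not given, so these directions are a description.

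Itgb7, the β subunit of lymphocyte homing integrins, was the 1 gene of the lists called at 2-fold or more, a count that was 3 without irradiated Chek2-/- replicate 2. With 1.08% of all genes called at this threshold and 0.859% upwards, 1 of 76 is close to the background. It was at 0.380, 0.593 and 0.900 CPM (lowest, median, highest) in non-irradiated and at 1.71, 3.54 and 4.76 CPM in irradiated wild-type ovaries. The groups did not overlap. Its rise in log2 CPM was 2.42, with an SE of 0.27 (edgeR adjusted p = 1.50e-06). Itgb7 is itself on the study's list of radiation-responsive genes, so that this is not independent evidence. In Chek2-/- ovaries its means were 0.477 ± 0.135 and 0.672 ± 0.234 CPM, and the change differed from that in wild type by -1.93 (SE 0.39, edgeR adjusted p = 0.00835). That difference contains the wild-type contrast by which the study's list was chosen, so it is not independent evidence either.

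The scaffold protein gene Vcl, encoding vinculin, rose from 174 ± 8.19 to 223 ± 15.1 CPM, and the laminin chain gene Lama5 from 99.1 ± 6.26 to 148 ± 31.7 CPM (SD, n = 6 each). Their log2 fold changes were 0.36 (edgeR adjusted p = 0.00137) and 0.58 (edgeR adjusted p = 0.00864). Lama5 was at 131 to 141 CPM in 5 irradiated libraries and at 212 CPM in replicate 4, which also had 1137.8 CPM of epithelial markers against 458.2 to 740.6 CPM in the others. Without replicate 4 the log2 fold change of Lama5 was 0.46 (edgeR adjusted p = 0.0245). The part of those markers was not tested. For Vcl the change in Chek2-/- ovaries differed by -0.39 (edgeR adjusted p = 0.0329). Over all 76 genes, 2.63% had a difference between genotypes at an adjusted p of at most 0.05, against 1.03% of all genes tested (0.694% downwards and 0.340% upwards). These were Itgb7 and Vcl, of which Vcl passed in 17 of 32 alternative settings.

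In irradiated against non-irradiated Chek2-/- ovaries 0 of the 76 genes passed in edgeR, and 0 in DESeq2 and in limma-voom, with 6 at an unadjusted p under 0.05. Only 0.0112% of all genes passed in this comparison, so that a count of 0 says nothing particular about the lists. The lists had a median of 0.03. Itgb2, the β subunit of leukocyte integrins, was at 1.73 to 2.43 CPM in 5 irradiated Chek2-/- libraries and at 34.2 CPM in replicate 2. In irradiated wild type it was at 2.89 to 4.15 CPM in 5 libraries and at 29.8 CPM in replicate 3. Both high values fall in the neutrophil-rich libraries, and that link was not tested.

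**Figure D4:**
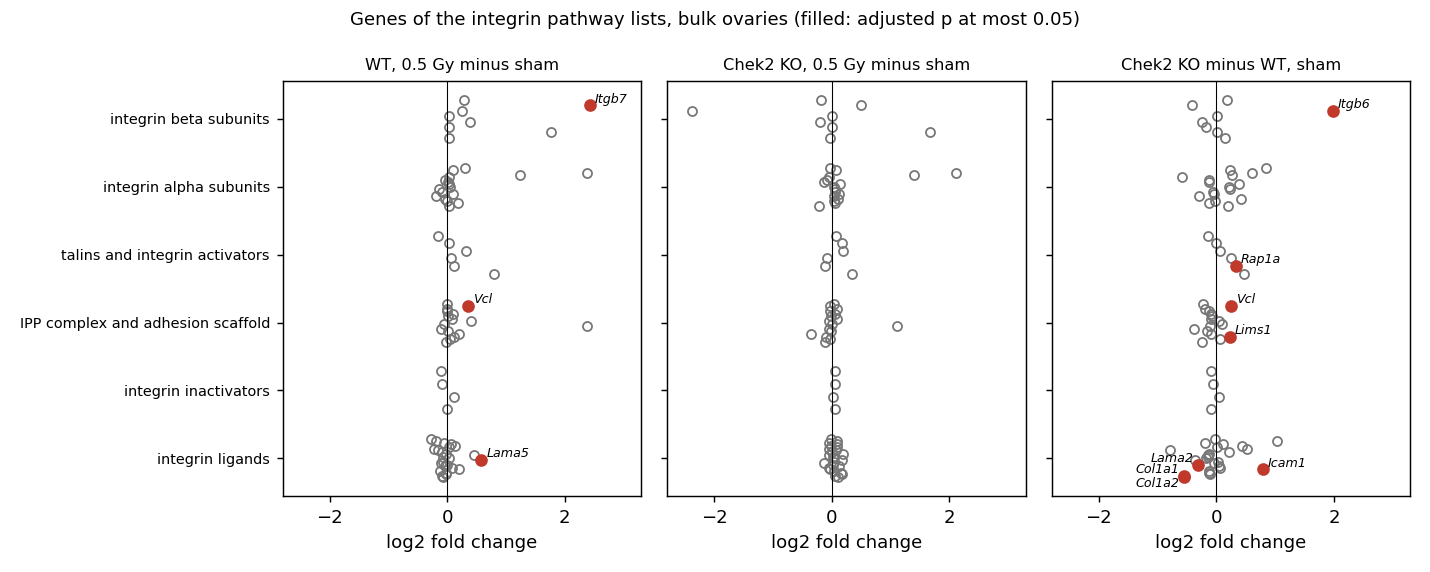
Log2 fold changes of 76 integrin pathway genes in bulk ovaries, 1 point per gene, by list and comparison, with filled points for an adjusted p of at most 0.05. Itgb7 at 2.42, Lama5 at 0.58 and Vcl at 0.36 are filled for irradiation in wild type, no gene is filled for irradiation in Chek2-/-, and 8 are filled for genotype.

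Non-irradiated Chek2-/- and wild-type ovaries differed in 8 of the 76 genes, or 10.5%, against 5.34% of all genes (3.12% higher and 2.22% lower). This count was not firm, since it ran from 2 (without non-irradiated wild-type replicate 3) to 10 when 1 library was left out, and of 33 alternative settings Lama2 passed in 15, Vcl and Lims1 in 27 each and Icam1 and Col1a1 in 29 each, while Rap1a and Col1a2 passed in all 33. Higher in Chek2-/- were Itgb6, an epithelial β subunit, by 1.98 (SE 0.58, edgeR adjusted p = 0.0449), the adhesion ligand gene Icam1 by 0.80 (edgeR adjusted p = 0.0256), the small GTPase gene Rap1a by 0.33 (edgeR adjusted p = 0.0160), Vcl by 0.26 (edgeR adjusted p = 0.0241) and Lims1, encoding the kindlin-linked scaffold PINCH, by 0.22 (edgeR adjusted p = 0.0268). Lower were the collagen genes Col1a1 and Col1a2, both at -0.55 (edgeR adjusted p = 0.0221 and 0.0112), and the laminin gene Lama2 at -0.31 (edgeR adjusted p = 0.0479). Fibroblast markers, a list that holds both collagen genes, summed to a median of 4826 CPM (4311 to 5587) in wild type and 4051 CPM (3377 to 4706) in Chek2-/-, and smooth muscle markers to 204 CPM (159 to 280) and 149 CPM (104 to 227). Their part in the 3 lower genes was not tested. The value for Itgb6 depended on replicate 6, since without that non-irradiated Chek2-/- library it was 0.89 (edgeR adjusted p = 0.230). This is the library with 1284.2 CPM of epithelial markers, whose part in the Itgb6 value was not tested.

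In single oocytes widely expressed partners of kindlins were present in every library. Itgb1, the most widespread β subunit, was at 82.5, 62.6, 64.4 and 74.9 CPM in the order of libraries above. Tln1, encoding talin, was at 60.4, 58.2, 53.3 and 55.6 CPM, and Ilk, encoding the kinase-like partner of kindlin in adhesions, at 61.6, 65.3, 66.7 and 66.1 CPM. The ratio of irradiated to non-irradiated wild type was 0.758 (0.700 to 0.821) for Itgb1, 0.962 (0.883 to 1.05) for Tln1 and 1.06 (0.978 to 1.15) for Ilk.

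Itgb2 and Itgb7, which encode β subunits of leukocyte integrins, were instead found in irradiated wild-type oocyte-like cells alone among the oocyte-like cells, beyond 5 UMIs per library. Itgb2 had 192 UMIs there, at 14.4 CPM (12.4 to 16.5) in 50 of 171 cells, and 5, 2 and 4 UMIs in the other libraries. Itgb7 had 107 UMIs, at 8.0 CPM (6.55 to 9.66) in 42 cells, and 1 UMI in each of the others. Their ratios within wild type were 83.0 (35.0 to 259) and 231 (40.6 to 9223). Fermt3 and Itgb2 were thus both raised in these cells and both present in macrophage-like cells, where Itgb2 was at 57.3 to 95.8 CPM and Itgb7 had 0 UMIs in all 4 libraries.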

How the data were processed

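Gene counts of the bulk libraries are estimated counts that the authors made with Salmon 1.3.0 (with Trim Galore 0.6.5 and FastQC 0.11.9, per the labels) against Ensembl transcripts. They were rounded, and 26790 genes with at least 10 counts over all 24 libraries were fitted by edgeR 4.0.16 in R 4.3.3 (TMM scaling, quasi-likelihood test, 1 coefficient per group, Benjamini-Hochberg adjustment over all genes). The study's threshold, an adjusted p of at most 0.05 with at least 2-fold change, and the adjusted p alone were both counted. On simulated counts for irradiated against non-irradiated wild type, 90% of 2-fold and 100% of 4-fold changes among 200 changed genes passed the adjusted p alone. The changed genes were drawn from those above 1 CPM on average, and no outlying library was simulated. These shares therefore do not cover a gene as low as Fermt1 in irradiated Chek2-/- ovaries, at a mean of 0.558 CPM. DESeq2 1.42.0 and limma 3.58.1 were alternatives. Symbols were matched for 44118 of 44674 genes from GENCODE and for 34 from the single-cell list.

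Single-cell files hold UMI counts that the authors deposited from Cell Ranger on mm10, for the barcodes it kept and before the study's own cell filter. Kept here were cells of at least 1000 genes, at most 20% mitochondrial UMIs and at most 50% ribosomal UMIs. Scrublet in scanpy 1.11.5 (Python 3.11.15) removed 389 to 566 doublets per library, 4.02% to 5.47% of cells. Leiden clusters (resolution 0.5, 30 components of 2000 variable genes, 15 neighbours) were built without the kindlin genes and the study's radiation-responsive genes. A cluster was named when at least 60% of a marker list, and 3 markers, were in 25% of its cells at 2-fold over the median cluster, limits set after the clusters had been seen. Likeness used bulk genes of at least 1 CPM on average, and single-cell genes of at least 500 UMIs in pools of at least 100000.

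Kindlins, Chek2 and pathway genes that passed a test are named, up to 10 per comparison by smallest adjusted p, with Itgb1, Itgb2, Itgb7, Tln1 and Ilk in oocytes and the 5 most alike genes per kindlin. The genes and lists were chosen with earlier results of these data known. No bulk library was a repeat of another in its group, since chi-square divided by its degrees of freedom lay between 6.25 and 60.5 in all 60 within-group pairs. Pairs across groups were not compared.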

Additional observations from a re-analysis of the deposited data

Results flagged for a closer look

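Among 36 sets of 6 bulk libraries that were screened for a library far from the others (gap to the nearest library over the range, limit 0.625), 7 were marked, where chance marks about 1 in 20. For the kindlins these were Fermt1 in non-irradiated Chek2-/- replicate 6 (gap 0.638, 3.88 CPM), Fermt2 in irradiated Chek2-/- replicate 6 (0.638, 163 CPM) and Fermt3 in irradiated Chek2-/- replicate 2 (0.870, 8.91 CPM). Among integrin pathway genes they were Itgb7 in irradiated Chek2-/- replicate 2 (0.628, 1.11 CPM), Itgb2 in the same library (0.979, 34.2 CPM), Itgb2 in irradiated wild-type replicate 3 (0.953, 29.8 CPM) and Lama5 in irradiated wild-type replicate 4 (0.875, 212 CPM). Of these 7 values, 3 came from irradiated Chek2-/- replicate 2, with 1797.7 CPM of neutrophil markers, and 2 from the Chek2-/- replicates 6, with 1998.3 and 2248.2 CPM of oocyte markers.

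In 2 pathway genes the change on irradiation differed between genotypes by edgeR's test of the difference. The change in Chek2-/- minus that in wild type was -1.93 on the log2 scale for Itgb7 (adjusted p = 0.00835) and -0.39 for Vcl (adjusted p = 0.0329). For Itgb7, which is on the study's list of radiation-responsive genes, this contains the wild-type contrast by which the list was chosen and is not independent evidence.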

How the results depend on the processing

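No call on a kindlin gene changed under any alternative that was run (DESeq2, limma-voom, other scaling, other filters, only the groups compared, replicate block, 24 fits that each left out 1 library, and 2 settings chosen after seeing the data, which left out the neutrophil-rich or the oocyte-poor libraries). In wild type, the log2 change of Fermt2 was -0.01 and turned to 0.0016 under DESeq2 and RLE scaling, 0.0046 with edgeR's own filter, 0.0021 with no filter, 0.0076 with only the groups compared and 0.0025 without the neutrophil-rich libraries, all within its error. Without the neutrophil-rich libraries the change of Fermt3 was -0.20 in Chek2-/- and its difference between genotypes -3.69, and the number of pathway genes with a difference between genotypes at adjusted p alone went from 2 to 1. Without the oocyte-poor libraries the genotype difference was -0.12 for Fermt1 and 0.0017 for Fermt2. The pathway count for genotype at 2-fold, 1 gene (Itgb6), was 0 with limma-voom, no filter, only the groups compared and without the oocyte-poor libraries. For the thinned shares of oocyte-like cells, unthinned to thinned, Fermt1 went from 1.53% to 0.529% in non-irradiated and 49.7% to 25.8% in irradiated wild type. It went from 1.33% to 0 in non-irradiated Chek2-/- and 0.709% to 0 in irradiated Chek2-/-. In the order of libraries used above, Fermt2 went from 89.3%, 57.9%, 92.0% and 78.0% to 30.7%, 24.2%, 19.2% and 32.5%. Fermt3 went from 4.59%, 59.1%, 8.0% and 3.55% to 0, 30%, 1.37% and 0. Thinning lowers shares by its construction, and elsewhere the cause was not tested.

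Leaving out 1 library at a time gave log2 changes in wild type of 4.30 to 4.79 for Fermt1, -0.023 to 0.013 for Fermt2 and 3.50 to 3.74 for Fermt3. In Chek2-/- they were -1.50 to -0.42, -0.12 to -0.02 and -0.20 (without irradiated replicate 2) to 0.76. The genotype difference ranged from -0.11 (without non-irradiated Chek2-/- replicate 6) to 0.95, -0.083 to 0.0018 and -0.37 to -0.06, and the difference between the changes from -5.98 to -4.90, -0.12 to -0.03 and -3.81 to -2.84. Pathway genes called at 2-fold were 1 to 3 in wild type (3 without irradiated Chek2-/- replicate 2), 0 to 0 in Chek2-/-, 0 to 2 for genotype and 1 to 1 for the difference of changes. At adjusted p alone they were 3 to 5, 0 to 0, 2 (without non-irradiated wild-type replicate 3) to 10 and 1 to 2. Of the genes named, Itgb7, Vcl and Lama5 in wild type passed in 33 of 33 alternatives, Itgb7 for the difference of changes in 32 of 32 and Vcl in 17 of 32, whereas for genotype Itgb6 passed in 16 of 31, Lama2 in 15 of 33, Vcl and Lims1 in 27 of 33 and Icam1 and Col1a1 in 29 of 33.

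Replicate numbers are shared by the groups. Same-numbered libraries deviated together (correlation over 0.1) in 3 of 6 pairs within wild type and 5 of 6 within Chek2-/-, with median correlations of 0.144 and 0.306. Between non-irradiated genotypes 2 of 6 pairs did. Differently numbered pairs were not compared, so these values cannot show whether the numbers pair the samples. The main fits treated the libraries as unpaired. With the replicate block the log2 change of Fermt1, Fermt2 and Fermt3 was 4.69, -0.01 and 3.62 in wild type and -1.05, -0.07 and 0.42 in Chek2-/-, the genotype difference 0.53, -0.05 and -0.20, and the pathway count for genotype at adjusted p alone 9 against 8.

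With doublets kept, at least 2000 genes per cell, resolution 1.0 or at least 10000 UMIs per oocyte-like cell, levels of the kindlins in oocyte-like and macrophage-like cells stayed within their Poisson intervals, except Fermt2 in macrophage-like cells of irradiated Chek2-/-, which went from 6.18 CPM (0.749 to 22.3, 2 UMIs in 23 cells) to 25.8 CPM (14 UMIs in 40 cells) with at least 2000 genes. Low counts limit the bulk values of Fermt1 at rest, and the numbers of UMIs those outside oocytes.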

Other observations

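Fermt1 outside oocytes was not spread evenly over granulosa-like cells. A granulosa-like cluster led by Akr1c18 and Hsd3b1, genes of steroid metabolism, held 11 of the 12 Fermt1 UMIs of granulosa-like cells in non-irradiated wild type (1.77 CPM, 0.885 to 3.17), 26 of 48 in irradiated wild type (3.90 CPM, 2.55 to 5.72), 0 of 2 in non-irradiated and 6 of 7 in irradiated Chek2-/- (1.27 CPM, 0.465 to 2.76). Single cells of this cluster reached 6 UMIs in non-irradiated wild type, 10 UMIs in irradiated wild type and 6 UMIs in irradiated Chek2-/-, each with 0 UMIs of Fermt3. The cell with 10 also held 8 UMIs of Cbr2. These cells were noticed after their values were seen. In the macrophage-like class of irradiated wild type, 1 cell held 7 of its 8 Fermt1 UMIs, together with 4 UMIs of Cbr2 and 1 of Fermt3.

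Fermt2 also differed among granulosa-like clusters. In the same cluster it stood at 79.0 CPM (72.2 to 86.3) in non-irradiated and 77.9 CPM (71.3 to 84.9) in irradiated wild type, and at 144 CPM (139 to 149) and 168 CPM (164 to 173) in the granulosa-like cluster led by Gm2044. Cells of the second cluster were 943 of 2977 granulosa-like cells without and 1540 of 3574 with irradiation in wild type, so the granulosa-like ratio of 1.14 also contains this difference in makeup.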
